A study of Mus musculus with 19 samples.

Results

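Fat of new onset diabetic NOD mice treated with the Power Mix regimen (PM, 3 arrays) was compared with fat of new onset diabetic NOD mice labelled only as diabetic (DIA, 2 arrays). These are 5 of the 19 arrays of the series. The 5 arrays were chosen by their labels alone. The question was which transcripts differed in fat after this treatment. Every mouse was a female of the NOD (NOD/LtJx) strain, an inbred strain that develops autoimmune diabetes spontaneously and carries no engineered allele here. Power Mix combines IL2.Ig, a mutant antagonist-type IL15.Ig and rapamycin. For comparison, fat of normoglycemic mice (NOR, 2 arrays) and of diabetic mice given alpha1 anti-trypsin (AAT, 2 arrays) was used, and all 9 fat arrays shared 1 estimate of the spread. Age at dissection, doses and the time between treatment and dissection were not stated for these mice. The study gave insulin to diabetic mice according to their blood glucose. Whether the DIA, PM or AAT mice of these arrays received insulin was not stated. The study's methods name epididymal fat, a depot of males although these mice were female, dissected for RNA and immunoblotting after a fast and an injection of insulin or saline. Whether that applied to the mice of these arrays was not stated. Neither is it given whether the arrays of a group came from separate mice, so the errors measure the spread between these arrays, which may be technical. The labels' treatment text speaks of streptozotocin and anti-TNF-α, which belong to other mice of the study.

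White fat stores triglyceride. Insulin drives glucose uptake and the synthesis of fatty acids there, through the transcription factors Srebf1 and Mlxipl, and holds down fasting genes such as Pck1 and Pdk4. Glucocorticoids and cell stress induce an overlapping set of early response genes. Rapamycin bound to Fkbp1a inhibits mTOR complex 1, a kinase complex that promotes lipid and protein synthesis, while IL-2 and IL-15 signal through shared receptor chains on T and NK cells.

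Each array gave 45037 signals of probe sets, short stretches of a transcript read by several oligonucleotides, on a linear scale. Differences were taken on log2 signals. They are given relative to the median difference of all probe sets, which was 0.15 on the log2 scale in PM minus DIA, and each error is a standard error (SE) from the fit of the 9 fat arrays.

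The actin ratio differed between the groups. The ratio of actin signal at the 3' end to that at the 5' end, which grows as RNA is degraded or incompletely copied, was 15.2 and 15.5 on the DIA arrays and 5.93, 3.35 and 6.32 on the PM arrays. It was 9.08 and 5.87 on the AAT arrays and 3.63 and 4.30 on the NOR arrays. The same ratio for Gapdh was 2.46 and 4.63 in DIA and 1.08, 0.904 and 0.982 in PM, so it was highest on DIA array 2. It was 2.31 and 0.790 in AAT and 0.910 and 0.946 in NOR. The PM and DIA ranges overlapped in neither ratio. The ratios thus moved with the groups, and their part in the results cannot be told apart from that of treatment. Gene groups with at least 3 members at the thresholds in 1 direction in PM minus DIA are therefore also given from a fit with the log2 actin ratio as a covariate. Its median SE was 1.46 in place of 0.715. PM array 2 was less like the DIA arrays than the other PM arrays were. Its correlation with the DIA arrays was 0.747 and 0.760, against 0.826 to 0.863 for PM arrays 1 and 3. NOR array 1 was nearly as far from them, at 0.775 and 0.768. The label of fat was borne out by the adipocyte markers, since Fabp4, the fatty acid carrier of adipocytes, ranged from 127800 to 240700 in PM and from 104000 to 144800 in DIA.

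No transcript differed between PM and DIA fat at an adjusted p under 0.05 (limma with Benjamini-Hochberg adjustment, 0% of 45037 probe sets, smallest adjusted p = 0.081), while 4365 had an unadjusted p under 0.05. A rank product test, adjusted the same way, called 2 higher and 1 lower. At the thresholds of the study, a fold change over 2 with an unadjusted p of at most 0.05, 2072 transcripts were higher and 1391 lower in PM. Without PM array 2 these counts were 1162 and 980, without DIA array 2 they were 1710 and 882, and without PM array 1 they were 2707 and 2205. The fold change was taken as measured, not relative to the median difference. A smaller printed difference thus sufficed to count as higher than to count as lower. After each array was centred on its own median the counts were 1510 higher and 1725 lower, and several lists below had fewer members higher. Of the 18193 genes, each taken by its brightest probe set, 4.09% were higher and 3.09% lower at these thresholds, and these shares are the background for every count of list members below. On 18.8% of the genes all PM arrays lay above both DIA arrays, and on 12.5% all lay below. In bulk fat, fewer cells of a type and less RNA per cell cannot be told apart.

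**Figure D1:**
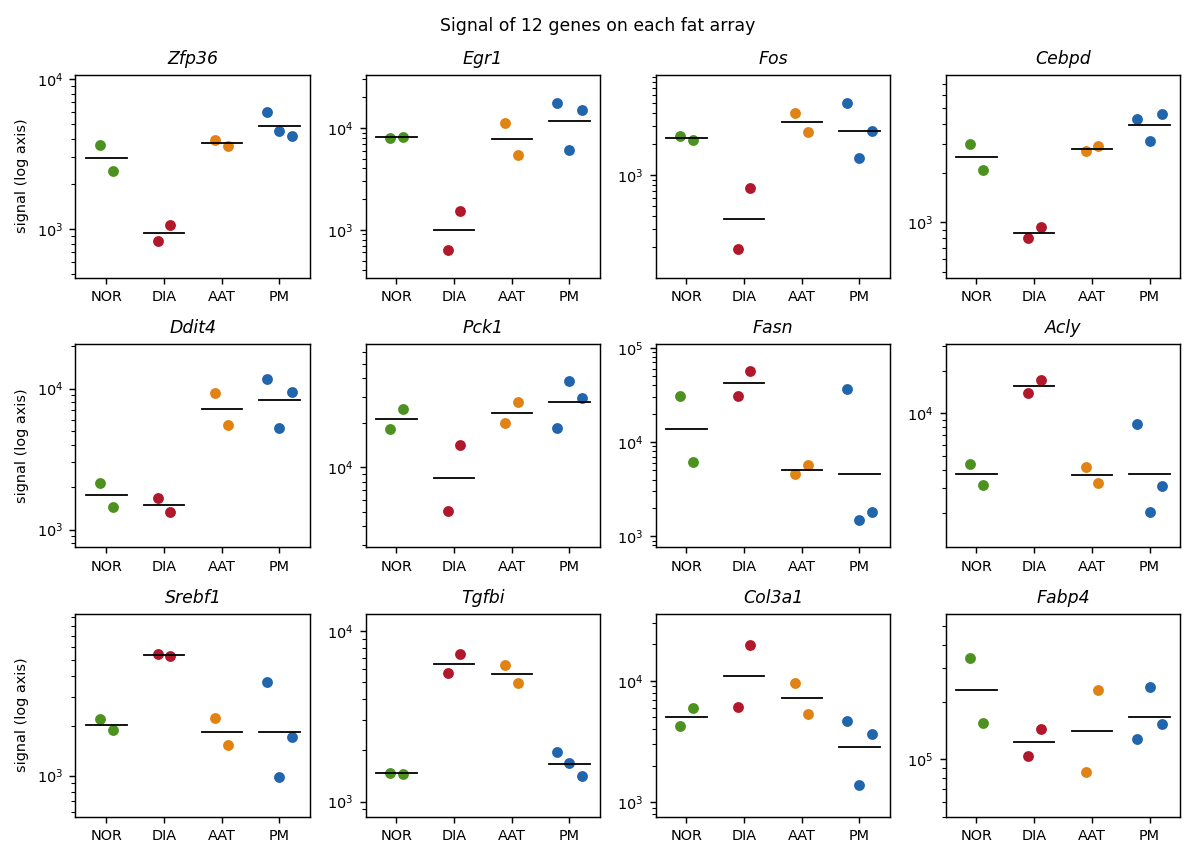
Signal of 12 genes on each of the 9 fat arrays (vertical log axis, arbitrary signal units), with a point per array and a black bar at the geometric mean of each group. Zfp36, Egr1, Fos, Cebpd and Ddit4 are higher on all 3 PM arrays than on both DIA arrays, while Fasn is low on only 2 of the 3 PM arrays.

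Of the 15 transcripts named at the higher end, 2 were on the list of immediate early genes and 4 on that of fasting genes, and several were on neither. The 15 named at each end were chosen among probe sets whose PM and DIA arrays did not overlap. That separation was thus fixed by the choice and is not a result. Zfp36, which promotes decay of cytokine mRNAs, gave 6069, 4479 and 4202 in PM and 836.5 and 1066 in DIA. Its log2 difference was 2.21 ± 0.29 (SE, adjusted p = 0.081). Cebpd, a transcription factor of early adipogenesis, gave 4256, 3154 and 4565 in PM against 803.8 and 934.1 in DIA. The log2 difference was 2.04 ± 0.29 (adjusted p = 0.081). Egr1, a growth factor-induced transcription factor, gave 17680, 6016 and 14830 in PM and 640.4 and 1541 in DIA. Its log2 difference was 3.40 ± 0.51 (adjusted p = 0.113), with PM array 2 the lowest of its group and still well above both DIA arrays. Mycl, a member of the Myc family, gave 645.3, 1320 and 990.1 in PM against 102.5 and 53.24 in DIA, and Irf4, a transcription factor of lymphocytes and adipocytes, gave 4625, 5525 and 2353 against 355 and 119.3. Both were thus low on both DIA arrays. Net1 (log2 difference 3.86 ± 0.64), Ranbp9 (1.78 ± 0.32), Anp32a (2.92 ± 0.52) and Rph3a (2.64 ± 0.50) completed the set, and all of these had adjusted p-values from 0.081 to 0.271. Against normal fat, PM minus NOR of the 15 ran from -0.82 (Ppbp) to 2.23 (Ddit4). Egr1 was at 0.51, Net1 at 0.13, Txnip at -0.06 and Mycl at -0.53. DIA minus NOR ran from -4.47 (Ppbp) to -0.13 (Ddit4).

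Of 30 measured immediate early genes, which cells transcribe within minutes of a stimulus, 8 were higher and 0 lower at the study thresholds, and 11 had all PM arrays above both DIA arrays. Besides Zfp36 and Egr1 these were Fos, Ier2, Maff, Dusp1, Myc and Junb. Fos, a subunit of the AP-1 transcription factor, gave 5012, 1449 and 2682 in PM and 189.5 and 751.2 in DIA, a log2 difference of 2.69 ± 0.58. Ier2 gave 2637, 1996 and 2126 against 537.6 and 880.7, and Maff, a small basic leucine zipper protein, gave 454.5, 1146 and 712.1 against 92.54 and 142.5. None of these 3 genes overlapped between the groups. Dusp1, a phosphatase of MAP kinases, gave 7941, 3178 and 7489 in PM against 1401 and 1797 in DIA. Myc (1.36 ± 0.41) and Junb (0.99 ± 0.44) differed by less. The brightest members beside Egr1 did not meet the thresholds, with Jund at -0.98 ± 0.33 and Zfp36l1 at 0.11 ± 0.33. The median of the list was 0.45 above that of all genes, and without single arrays it ranged from 0.25 to 1.00 with 7 to 11 members higher. With the actin covariate 12 members were higher and 1 lower, and the median was 2.04.

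Glucocorticoid-responsive genes gave the highest median of the 40 lists. Of 21 members, 19 lay above the median of all genes, 8 were higher and 0 lower at the thresholds, and the list median was 0.89. Cebpd, Ddit4, Pdk4, Errfi1, Klf15, Dusp1, Cebpb and Nfkbia made up the 8. Ddit4, a stress-induced inhibitor of mTOR complex 1, gave 11600, 5243 and 9502 in PM and 1663 and 1337 in DIA (log2 difference 2.33 ± 0.38, adjusted p = 0.166). Its NOR values were 2128 and 1445, so the PM arrays also lay above those of normal fat. Errfi1, a feedback inhibitor of EGF receptor signalling, gave 5035, 6987 and 4703 in PM against 837.8 and 1543 in DIA. Klf15, a transcription factor of fasting metabolism, gave 1642, 2086 and 1816 against 578 and 820.7. Nfkbia, the inhibitor of NF-kB, gave 29810, 18340 and 30710 against 15870 and 7226, and Cebpb differed by 0.86 ± 0.31. In each of these genes all PM arrays were above both DIA arrays. Not every member was: Sgk1, a kinase named here after its values were seen, gave 10270, 1367 and 10310 in PM and 2230 and 1145 in DIA, so PM array 2 lay between the DIA arrays. Among the brightest members, Glul differed by 0.20, Klf9 by 0.20 and Mt1, a metallothionein, by 1.09, none at the thresholds. Without single arrays the count was 8 to 11 and the median 0.48 to 1.34. After median centring the count was 6. The actin covariate gave 8 higher, 0 lower and a median of 1.25.

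The promoters of these genes were searched for named motifs, since their members lay on the same side together. The cAMP response element (TGACGTCA, both strands) was in the windows of 300 bases around the start of 2 of 7 glucocorticoid-responsive genes at the thresholds that had one, Dusp1 and Errfi1, and of 2 of 5 such immediate early genes, Dusp1 and Maff. It was also in 1 of 9 lipid synthesis genes at the thresholds, Pnpla3, which was lower in PM, and in 1.79% of the 32851 windows of that length searched. These left out 1 chromosome, and a gene can have more than 1 window. The CArG box, the site of serum response factor, was in 1 of those 5 genes, Zfp36, and in 1.63% of the windows searched. Egr1, Ier2 and Myc had no window searched, so the counts for immediate early genes say nothing of them. Of 12 genes named at the higher end that had a window, 2 held it, Zfp36 and Ppbp. The glucocorticoid response element was in 0 of the 7, in 1 of those 12, Txnip, and in 0.475% of the windows searched. Its absence says only that its letters were not in the windows of those genes. The E-box (CACGTG) was in 2 of the 7 and 2 of the 5 as well, and in 7.15% of the windows searched. The GC box (GGGCGG) was in 6 and 4 (35.7%), the inverted CCAAT box (ATTGG) in 4 and 1 (37.4%), and TCACNCCA in 0 and 1 (4.36%). The sequences below are the 250 bases before the start, from RefSeq on GRCm38.p6, 5' to 3' on the strand of the gene, with the match in capitals. Dusp1 lies at chr17:26508473-26508722 on the minus strand, Errfi1 at chr4:150854820-150855069 on the plus strand, Maff at chr15:79347270-79347519 on the plus strand and Zfp36 at chr7:28379229-28379478 on the minus strand. Errfi1 has another annotated start and Maff has others, whose windows do not hold the element.
Dusp1: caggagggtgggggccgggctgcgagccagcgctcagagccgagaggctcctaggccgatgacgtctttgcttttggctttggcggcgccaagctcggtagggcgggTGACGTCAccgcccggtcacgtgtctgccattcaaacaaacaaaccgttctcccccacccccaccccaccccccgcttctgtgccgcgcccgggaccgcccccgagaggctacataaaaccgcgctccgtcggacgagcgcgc
Errfi1: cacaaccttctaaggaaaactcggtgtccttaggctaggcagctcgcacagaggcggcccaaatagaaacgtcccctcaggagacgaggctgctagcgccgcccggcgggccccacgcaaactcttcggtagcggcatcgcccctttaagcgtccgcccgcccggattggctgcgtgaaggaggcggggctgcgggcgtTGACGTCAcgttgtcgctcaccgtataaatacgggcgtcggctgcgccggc
Maff: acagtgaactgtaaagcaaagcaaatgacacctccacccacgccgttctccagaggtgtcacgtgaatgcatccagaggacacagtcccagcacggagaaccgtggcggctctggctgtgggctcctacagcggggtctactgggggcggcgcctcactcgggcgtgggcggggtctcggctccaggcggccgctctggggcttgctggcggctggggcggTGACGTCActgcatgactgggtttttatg
Zfp36: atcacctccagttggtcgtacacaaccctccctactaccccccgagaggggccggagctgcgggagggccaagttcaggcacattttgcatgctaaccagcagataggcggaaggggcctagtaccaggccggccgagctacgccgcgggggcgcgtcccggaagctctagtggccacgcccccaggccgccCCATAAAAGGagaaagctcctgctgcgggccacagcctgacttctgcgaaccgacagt

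Fasting genes that insulin represses were higher in part. Of 18, 6 were higher and 0 lower at the thresholds: Ddit4, Pdk4, Klf15, Txnip, Pck1 and Bnip3. Pdk4, a kinase that shuts pyruvate out of oxidation, gave 10760, 4467 and 9475 in PM and 1828 and 1732 in DIA (log2 difference 1.96 ± 0.37, adjusted p = 0.254). Pck1, which makes glycerol for re-esterification in fat, gave 18510, 38450 and 29470 against 5102 and 14140 by its brightest probe set, and 3467, 5884 and 3727 against 358.4 and 392.1 by another. Both probe sets were above the DIA range on all PM arrays. Txnip, an inhibitor of glucose uptake, gave 23190, 18850 and 22180 against 10710 and 7235. Bnip3, a mitophagy receptor, differed by 1.00 ± 0.41. Leaving out single arrays gave 5 to 7. The median of the list was only 0.16, since the other 12 members lay on both sides. With the actin covariate 3 were higher and 0 lower, and the median was 0.91. Related genes of fat breakdown and oxidation counted few: 1 of 17 lipolysis genes was higher, with a list median of -0.60, namely Abhd5, the co-activator of triglyceride lipase, at 3950, 6012 and 2966 against 1321 and 1388. The sign of that list median was not stable. It was 0.17 without PM array 2, and 1.93 with the actin covariate, under which 7 lipolysis genes were higher and 0 lower. Among 18 genes of fatty acid oxidation 2 were higher, Pdk4 and Etfdh, an electron carrier of the pathway (1.67 ± 0.34).

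Fatty acid and triglyceride synthesis gave the lowest median of the 40 lists at -1.57. Of 26 members, 25 lay below the median of all genes, and 0 were higher and 12 lower at the thresholds. Scd2, a desaturase, gave 528.1, 324.5 and 455.6 in PM and 1530 and 4864 in DIA (log2 difference -2.82 ± 0.46, adjusted p = 0.249). Acly, which makes cytosolic acetyl-CoA, gave 8379, 2045 and 3092 against 13870 and 17250. Mlxipl, the glucose-sensing transcription factor, gave 1725, 813 and 1181 against 5438 and 5628. In these 3 genes every PM array lay below both DIA arrays. The same held for Pgd (-2.44 ± 0.46), which makes NADPH, Agpat2 (-2.28 ± 0.48), Acss2 (-2.17 ± 0.47), Pnpla3 (-2.13 ± 0.51) and Dgat2 (-2.46 ± 0.65), the last being an enzyme of the final step of triglyceride synthesis. Srebf1, the transcription factor of lipid synthesis, gave 3668, 984.8 and 1700 in PM against 5445 and 5290 in DIA.

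PM array 1 was close to the DIA arrays in this pathway. Fasn, fatty acid synthase, gave 36460 on PM array 1, 1472 on array 2 and 1824 on array 3, with 30720 and 56990 in DIA. Acaca, which makes malonyl-CoA, gave 20860, 3624 and 4324 with 22560 and 26000 in DIA. So PM array 1 lay inside the DIA range for Fasn and just below it for Acaca. Among the brightest members PM array 1 was likewise the highest of its group. Tkt gave 63950, 15340 and 13760 against 54860 and 68360. Thrsp gave 38580, 6099 and 11720 against 28430 and 46410, while Scd1 gave 91840, 12920 and 72680 against 62410 and 103400. NOR arrays were also unlike each other, with Fasn at 31130 and 6093. Fasn, Acaca and Srebf1 were named after their values were seen. The list level is the median over members of the log2 signal less its mean over the 9 arrays, relative to the same median over all genes of the array. For lipid synthesis it was 0.71, -1.37 and -0.53 in PM, and 0.78 and 1.21 in DIA.

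Without PM array 1 the count of lower lipid synthesis genes was 17 and the median -2.29. Without DIA array 2 it was 7 and -1.29, and without PM array 2 it was 9 and -1.05. With the actin covariate 3 members were higher and 2 lower, and the median was -0.24, with Mlxipl, Dgat2 and Srebf1 at positive values (0.33, 0.84 and 0.73). Cholesterol synthesis and uptake gave 1 of 21 higher and 3 lower: Insig2 was higher (0.95 ± 0.32), and Insig1, Sc5d and Mvk were lower. Insig1, a sterol-sensing protein of the endoplasmic reticulum that is a target of Srebf1, gave 3297, 715.8 and 734.1 in PM and 5390 and 8102 in DIA. In glycolysis and glucose uptake, 3 of 18 were lower, Tpi1, Pkm and Slc2a4, and 1 was higher, Pfkfb3 at 3638, 2883 and 3263 against 1814 and 1419. Under the actin covariate the cholesterol list had 1 higher and 0 lower, and the glycolysis list 2 higher and 0 lower. The count of lower glycolysis genes was 1 without DIA array 2 and 1 without PM array 2.

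**Figure D2:**
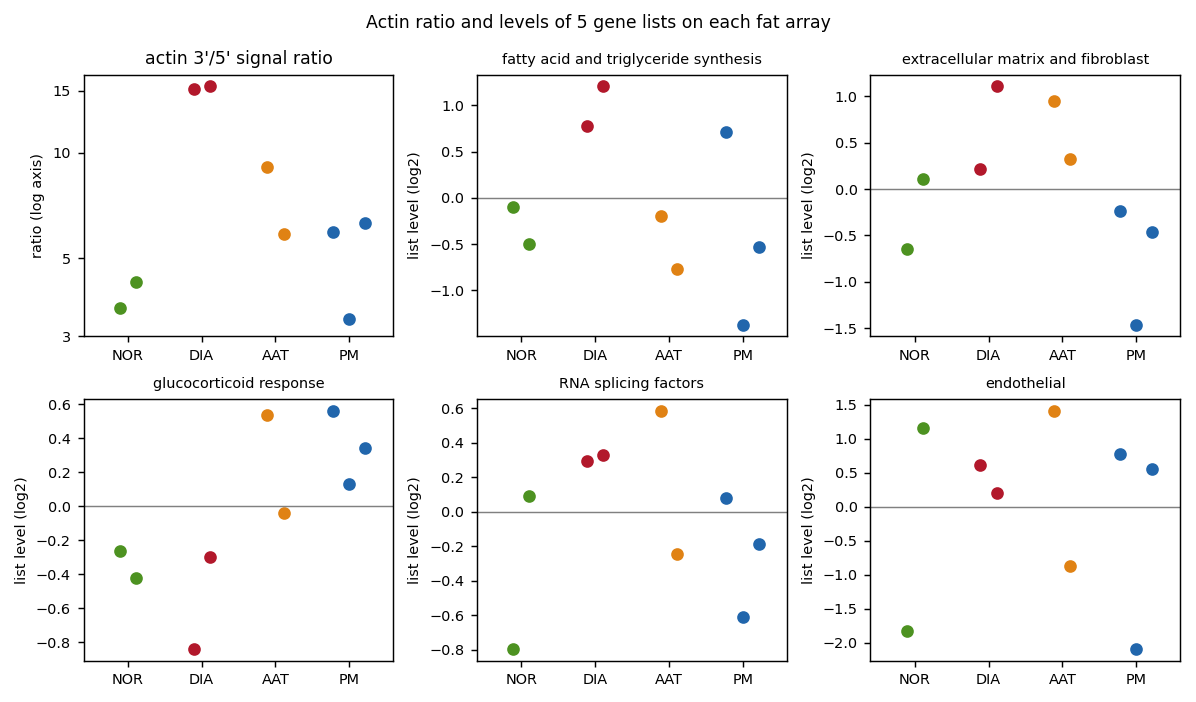
Actin 3'/5' signal ratio (log axis) and the level of 5 gene lists (median over members of log2 signal less its 9-array mean, relative to that of all genes) on each fat array. The actin ratio is 15.2 and 15.5 on the DIA arrays and at most 6.32 on the PM arrays, and PM array 1 sits at 0.71 in lipid synthesis, beside the DIA arrays.

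The targets of Power Mix itself gave few members at the thresholds. Of 25 mTOR pathway genes, 2 were higher and 0 lower at the thresholds, and the list median was -0.08. The 2 were Ddit4 (above) and Rheb, the small GTPase that activates mTOR complex 1, which gave 4433, 7174 and 4951 in PM and 1686 and 3294 in DIA (1.05 ± 0.35). Mtor, the kinase, gave 1501, 1075 and 1538 against 1380 and 1691, a difference of -0.32 ± 0.29 whose arrays overlapped. Its partners Rptor (-0.20 ± 0.31), Rictor (-0.32 ± 0.31) and Mlst8 (-0.11 ± 0.40) did not meet the thresholds either. Fkbp1a, the rapamycin receptor, gave 9052, 11900 and 11050 against 11970 and 17250, so all PM arrays were below both DIA arrays by a narrow margin (-0.59 ± 0.33). The inhibitors Tsc1 (-0.51 ± 0.28), Tsc2 (-0.36 ± 0.46), Akt1s1 (0.07 ± 0.28) and Deptor (-0.96 ± 0.35), and the nutrient sensors Sesn2 (0.32 ± 0.38) and Castor1 (0.21 ± 0.35), did not meet them. Among the outputs, Eif4ebp1, the brightest member, gave 16420, 17040 and 15960 against 13060 and 18150, and Rps6 differed by 0.07 ± 0.32 and Hif1a by -0.84 ± 0.38.

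Of 15 genes of the IL-2 and IL-15 axis, 2 were higher and 0 lower. Il7r, a receptor chain of naive and memory T cells, gave 400.4, 1443 and 623.8 in PM against 154.3 and 167.1 in DIA (2.00 ± 0.53), but the difference was 0.039 with the actin covariate. Il2rb, the chain that IL-2 and IL-15 share, gave 137.5, 528.2 and 387.9 against 106.3 and 55.17 (1.84 ± 0.77), a difference of -0.27 with the actin covariate. Both genes were highest on PM array 2, and under the actin covariate 0 of the 15 were higher. The count was 1 without PM array 2, PM array 3 or DIA array 2. Il2ra (0.68 ± 0.87), Il15ra (0.83 ± 0.46), Il15 (0.20 ± 0.58), Jak1 (0.48 ± 0.29) and Jak3 (-0.58 ± 0.53) did not meet the thresholds. Stat5a and Stat5b, the transcription factors of this axis, differed by -0.34 ± 0.41 and 0.05 ± 0.34, and their targets Cish, Socs2 and Pim1 by -0.05 ± 0.37, 0.17 ± 0.33 and -0.83 ± 0.34. Il2 itself was dim, at 22.99, 161.5 and 126.2 in PM and 49.29 and 94.4 in DIA. Il7r also leads the T and NK cell markers, of which 3 of 25 were higher, the others being Cd8a and Klrd1. Cd8a gave 551.3, 594.5 and 473.4 against 149.3 and 338.7. The count of T and NK cell markers was 1 without PM array 2 and 1 without DIA array 1, and the actin covariate gave 0 higher and 1 lower with a median of -0.68 in place of 0.29. Foxp3, the factor of regulatory T cells, gave 136.4, 207.2 and 203.1 against 163.7 and 122.4, so the groups overlapped, and Cd3e and Cd4 were dim in both. The summed signal of the 25 markers was 6268 to 13250 in PM and 6375 to 7024 in DIA.

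TNF-α and its pathway gave few members at the thresholds as well. Tnf gave 72.88, 48.74 and 32.37 in PM and 25.56 and 100.2 in DIA, a log2 difference of -0.21 ± 1.02 at a dim probe set whose groups overlapped. The receptors Tnfrsf1a (-0.10 ± 0.34) and Tnfrsf1b (0.10 ± 0.39) also overlapped. Of 17 measured genes, Lta, a related cytokine, was higher at 58.27, 36.59 and 151.8 against 11.19 and 10.79, all dim values. Adam17, the protease that sheds TNF-α, was lower at 404.9, 85.23 and 405.2 against 1094 and 473.2 (-1.73 ± 0.65, but 1.77 with the actin covariate). The adaptors and targets Tradd, Traf1, Traf2, Birc2, Birc3, Casp8, Tnfaip2, Tnfaip3, Tnfaip6, Tnfaip8, Ltb and Ltbr did not meet the thresholds, and their differences ran from -1.07 to 0.22. Chemokines and inflammatory cytokines gave 2 of 25 higher, Cxcl1 at 1265, 1119 and 988.8 against 449.1 and 609.6, and Cxcl13 (1.23 ± 0.61). The count of this list was 0 after median centring. In the NF-kB list, Bcl3 was lower at 11.24, 12.95 and 62.48 against 125.4 and 244.9, and Nfkbia was higher.

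Insulin receptor signalling counted 2 of 21 higher and 1 lower, but 0 higher and 0 lower after median centring. Gsk3b, the kinase that insulin inhibits, gave 1508, 2633 and 2590 in PM against 1058 and 893 in DIA (1.01 ± 0.36) by its brightest probe set, while 4 of its other 5 probe sets had the opposite sign. Pik3cb, a catalytic subunit of phosphoinositide kinase, gave 528.1, 639.2 and 857 against 266.7 and 298.1 (1.08 ± 0.41). Slc2a4, the insulin-responsive glucose transporter, was lower at 2646, 578.3 and 1376 against 2335 and 4046 (-1.41 ± 0.57), with PM array 1 inside the DIA range and a difference of 2.10 with the actin covariate. Insr, Irs1, Irs2, Akt1, Akt2 and Pdpk1 did not meet the thresholds. Insr gave 2626, 1051 and 2462 against 3769 and 3242, and Irs1 gave 2059, 2913 and 1832 against 1821 and 2335. Among adipocyte markers, 1 of 18 was higher and 2 lower: Pparg, the master regulator of adipocytes, gave 3544, 2507 and 2975 against 926.6 and 1735 (1.08 ± 0.33), and Slc7a10 and Slc2a4 were lower. The actin covariate gave 7 adipocyte markers higher and 0 lower. Adipoq, the gene of adiponectin, gave 60260, 21030 and 43790 against 20190 and 48980 and so overlapped.

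Extracellular matrix and fibroblast genes were lower as a group. Of 30 measured, 29 lay below the median of all genes, 0 were higher and 16 lower at the thresholds, and 20 had all PM arrays below both DIA arrays. The median was -1.39. Tgfbi, a matrix protein induced by TGF-β, gave 1951, 1674 and 1414 in PM and 5692 and 7295 in DIA (-2.10 ± 0.27, adjusted p = 0.112). Its NOR values were 1472 and 1454, beside those of PM. Loxl1, a cross-linking enzyme of elastin, gave 568.2, 169.3 and 547.8 against 1562 and 1739, and Igfbp5 gave 3616, 1118 and 3128 against 9894 and 7701. Both were lowest on PM array 2. Among collagens, Col3a1 gave 4617, 1380 and 3670 in PM against 6050 and 19620 in DIA, and Col1a1 gave 276, 320.6 and 495.5 against 1005 and 1625. Col6a1 differed by -1.81 ± 0.43 and Col6a2 by -3.07 ± 0.93. Pdgfra, a receptor of fibroblasts and their progenitors, differed by -1.57 ± 0.46. The brightest members Dcn, Dpt and Sparc gave differences of -1.12, -1.01 and -1.36, none at the thresholds.

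The count depended on DIA array 2: without it 5 matrix genes were lower and the median was -0.93, while without DIA array 1 there were 18 and -2.05. With the actin covariate 4 were higher and 2 lower and the median was 0.15, and Col1a2, Col3a1, Col5a1, Col6a2, Col6a3, Fn1, Igfbp5, Loxl1, Pdgfra and Timp2 took a positive sign. Tgfbi, Col1a1 and Col6a1 kept a negative one, at -1.41, -0.24 and -0.24.

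The contrast of PM with AAT, 2 treatments of the same disease, was tested in the same fit. No transcript differed at an adjusted p under 0.05 (limma, 0% of 45037 probe sets, smallest adjusted p = 0.11), 2500 had an unadjusted p under 0.05, and 1375 were higher and 823 lower in PM at the thresholds. Of all genes 2.4% were higher and 2.34% lower. For PM minus DIA and AAT minus DIA, which share the DIA arrays, the list medians are given side by side: lipid synthesis was -1.57 and -1.53, glucocorticoid response 0.89 and 0.81, immediate early genes 0.45 and 0.58, and ribosomal proteins 0.42 and 0.63. In PM minus AAT, 1 of 26 lipid synthesis genes was at the thresholds, Scd2 (-1.53), and its median was 0.14. The glucocorticoid list had 1 of 21 at the thresholds, the dim Lcn2, with a median of 0.22.

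Matrix, smooth muscle and mesothelial genes had the PM minus AAT medians farthest from 0 of the 40 lists. For the matrix list the medians were -1.39 in PM minus DIA and -0.22 in AAT minus DIA. In PM minus AAT 0 of 30 were higher and 16 lower, with a median of -1.23. Ogn, the proteoglycan osteoglycin, gave 2707, 2268 and 2014 in PM, 10770 and 10050 in AAT and 3720 and 6666 in DIA (PM minus AAT -2.34 ± 0.30, adjusted p = 0.141). Ptgis, prostacyclin synthase, gave 547.5, 387.8 and 865.8 in PM, 3546 and 4028 in AAT and 2663 and 2572 in DIA (-2.90 in PM minus AAT, adjusted p = 0.141). Igfbp6, a binding protein of insulin-like growth factors, gave 842.7, 884 and 919.3 in PM against 4336 and 3468 in AAT and 2115 and 3903 in DIA. In all 3 genes the PM arrays were the lowest of the treated and diabetic arrays. Separation of PM from AAT was required by the choice of all 3, and separation from DIA by that of Ptgis and Igfbp6.

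Smooth muscle and pericyte markers had a median of -0.86 in PM minus DIA, with 1 of 13 lower, and of 2.15 in AAT minus DIA. In PM minus AAT 9 of 13 were lower and the median was -2.99. The list level was -0.99, -1.95 and -0.45 in PM and 1.77 and 2.28 in AAT. It was -1.105 and 0.75 in NOR, so these markers varied widely within a group. List counts against AAT are not given with the actin covariate or without single arrays. Des, desmin of muscle filaments, gave 451.6, 487.9 and 461.6 in PM, 843.8 and 971.4 in DIA, and 2727 and 4151 in AAT (PM minus AAT -3.02 ± 0.33, adjusted p = 0.11). Myh11, the heavy chain of smooth muscle myosin, gave 471.7, 103.1 and 378.8 in PM, 848.8 and 617 in DIA, and 6346 and 11590 in AAT. Both were thus lowest in PM and highest in AAT by these probe sets. The other probe set of Des, a dimmer one, differed by 0.51 ± 0.56 in PM minus DIA. Lmod1 (-4.90 in PM minus AAT), Cnn1 (-4.87), Actg2 (-3.94), Tagln (-3.81), Smtn (-3.18), Acta2 (-3.06) and Mylk (-3.01), all of the contractile apparatus, also met the thresholds, while the pericyte genes Rgs5, Cspg4, Notch3 and Kcnj8 did not. The summed signal of the 13 markers was 8595 to 24120 in PM and 24450 to 28010 in DIA.

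All 10 mesothelial markers, genes of the lining of the body cavities that covers visceral fat, lay below the median in PM minus DIA, and 2 met the thresholds. Msln, mesothelin, gave 66.53, 37.92 and 96.18 in PM and 379.1 and 819 in DIA (-3.31 ± 0.68), with 804 and 279.5 in AAT. Efemp1, a matrix glycoprotein, gave 4825, 1852 and 4662 against 11150 and 11590. The PM arrays were below every DIA and AAT array in both genes, though Efemp1 stood at 0.71 with the actin covariate. Against AAT 6 of 10 were lower, among them Wt1 (-1.84), a transcription factor of mesothelium, and Upk3b (-1.30). The summed signal of the 10 markers was 7107 to 9625 in PM and 18290 to 18560 in DIA. Their part in the matrix result, like that of smooth muscle, was not tested.

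**Figure D3:**
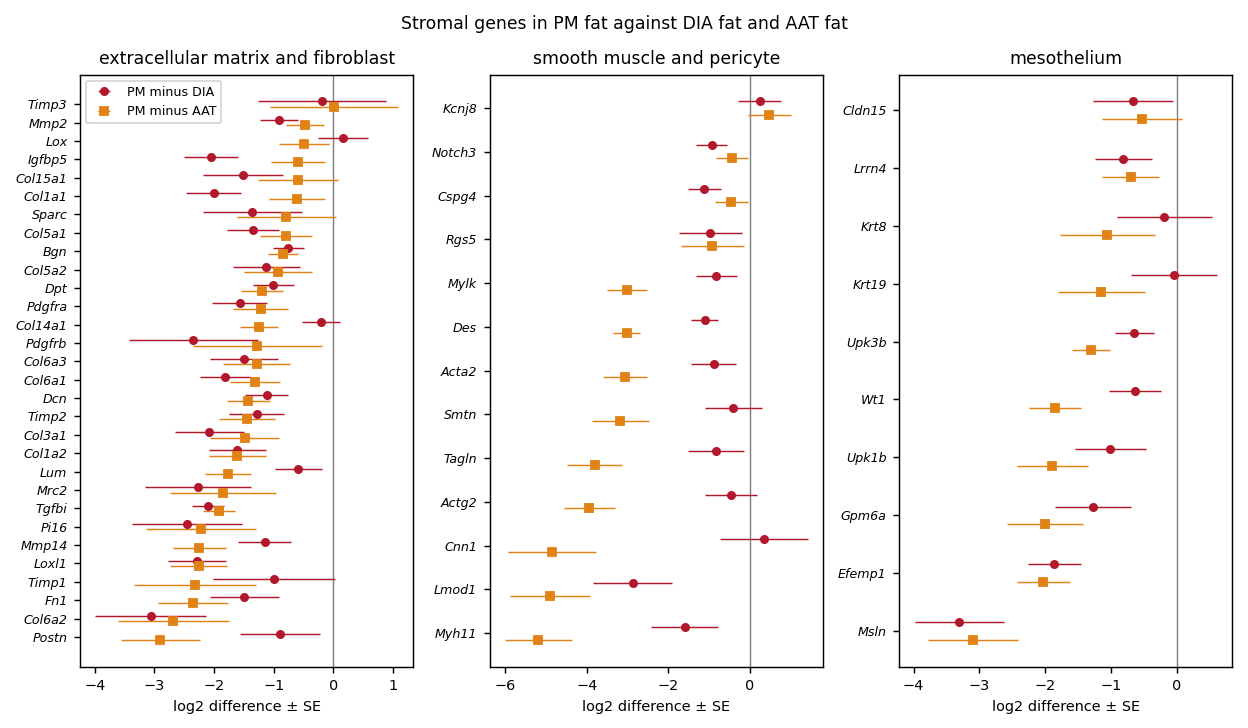
Log2 difference ± SE of PM minus DIA (circles) and PM minus AAT (squares) for every measured matrix, smooth muscle and mesothelial gene. Contractile genes such as Myh11, Lmod1 and Cnn1 lie between -4.87 and -5.19 against AAT and closer to 0 against DIA, where Cnn1 is at 0.33.

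The genes named as higher in PM than in AAT by the same rule differed by 0.99 to 2.07. Fdft1, squalene synthase, gave 1979, 1723 and 1582 in PM against 559.7 and 827.3 in AAT, with 1672 and 1596 in DIA (PM minus AAT 1.20 ± 0.33, adjusted p = 0.505). Its brighter probe set gave 6922, 2703 and 3039 in PM and 10550 and 5201 in DIA, so the 2 probe sets disagreed on PM minus DIA. Igf1, the growth factor of somatic and adipose tissue, gave 2079, 3038 and 2477 in PM, 976.8 and 1275 in AAT and 1076 and 1654 in DIA, beside 2595 and 2890 in NOR. Its other probe sets ran from -0.47, the brightest, to 0.28 in PM minus DIA. Gnai1 (1.18), Sebox (1.33), AU015836 (2.07) and Mapk8ip3 (1.58) were the others by smallest p. At the lower end, Pdlim4 (-2.85) and Pcdhb9 (-3.03) joined the genes above.

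Of 28 macrophage and monocyte markers, 1 was higher and 7 were lower in PM at the thresholds, 9 had all PM arrays below both DIA arrays, and the median was -0.61. Laptm5, a lysosomal protein of leukocytes, gave 1891, 1402 and 1739 in PM and 5178 and 5500 in DIA (-1.83 ± 0.30, adjusted p = 0.268). Clec10a, a lectin of tissue macrophages and dendritic cells, gave 884, 831.2 and 940.8 against 3376 and 3190. Csf1r, the receptor on which macrophages depend, gave 3426, 1475 and 2692 against 5460 and 7004. No PM array reached a DIA array in these 3 genes. C1qb (-1.25 ± 0.40), Mrc1 (-1.17 ± 0.44) and Cd209f (-1.38 ± 0.53) were lower as well, and Cd163 was lower but split in DIA, at 2408 and 80.14. Adgre1, which encodes the pan-macrophage antigen of mice, gave 575.8, 715.8 and 644.8 against 1032 and 936.7 without meeting the thresholds. Itgam was higher by a dim probe set (65.4, 89.36 and 112.8 against 17.67 and 3.819). The summed signal of the 28 markers was 21220 to 25530 in PM and 34190 to 52100 in DIA. Without DIA array 2 the count of lower markers was 3, without PM array 3 it was 4, and with the actin covariate it was 3, with a median of -0.48 and with Clec10a, Csf1r, C1qb and Mrc1 at positive values.

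Other genes at the lower end were F13a1, a transglutaminase of macrophages (2144, 3270 and 2504 in PM against 7718 and 10110 in DIA), Rnase4 (5345, 2229 and 2663 against 10640 and 12370) and Vat1 (2983, 1908 and 1974 against 12300 and 9471). Lmna, a protein of the nuclear lamina, gave 757.4, 448.5 and 522.3 against 1635 and 2506, whereas its brightest probe set differed by -0.43 and none of its other 4 met the thresholds. Matn2 differed by -2.53 ± 0.47, Olfm1 by -3.23 ± 0.61 and Ampd2 by -2.52 ± 0.47. The other probe set of Matn2 stood at -0.18 and that of Ampd2 at -0.49, neither at the thresholds, while both others of Olfm1 met them. Frmd4b differed by -2.04 ± 0.37 but by 0.07 with the actin covariate. By the probe sets named, all of these genes had adjusted p-values from 0.112 to 0.271, together with Tgfbi, Scd2, Ptgis, Laptm5, Igfbp6, Tpi1 and Pgd. That no PM array overlapped a DIA array in them was a condition of the choice.

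Erythroid and platelet genes, markers of blood in the tissue, were higher in 5 of 14 members. Ppbp, a platelet chemokine, gave 660.3, 1766 and 861.1 in PM and 173.5 and 30.97 in DIA (3.62 ± 0.65, adjusted p = 0.254). Slc4a1, the anion exchanger of red cells, gave 648.6, 1064 and 1304 against 342.7 and 173.6. Alas2, of haem synthesis in red cells, gave 2264, 1840 and 2591 against 676.2 and 968. In these 3 genes both DIA arrays lay below every PM array, and NOR arrays were at 2237 and 1362 for Ppbp. Bpgm (1.35 ± 0.51) and Car2 (0.97 ± 0.43) were the others. The count was 3 without DIA array 1 and 1 without DIA array 2, and the actin covariate gave 4 higher and 2 lower. The summed signal of the 14 genes was 14900 to 19380 in PM and 12020 to 14480 in DIA.

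Endothelial markers had a median of -0.57, and 1 of 23, Lyve1, was lower. Plvap, a protein of fenestrated capillaries, gave 5312, 294.9 and 4679 in PM and 3779 and 4209 in DIA, and Esam gave 3878, 644.5 and 3682 against 3600 and 2465. Among the PM and DIA arrays PM array 2 was thus the lowest by far, and without it the median was 0.22 with 0 of 23 lower. The list level was -2.09 on PM array 2, and -1.83 and 1.165 on the NOR arrays, so 1 normal array was nearly as low. Under the actin covariate 19 of 23 were higher. Markers of B and plasma cells (1 of 17 higher, Ighm, and 1 lower, Sdc1), of neutrophils and mast cells (1 of 18 higher, Mmp9) and of mammary epithelium (1 of 17 higher, Wfdc2) gave few members at the thresholds. Skeletal muscle, brown adipocyte and pancreatic acinar lists and MHC class II gave 0. The summed signals of these lists, in the same order, were 23320 to 28420, 3328 to 7113, 6091 to 10380, 2058 to 4124, 2809 to 3912 and 2112 to 3430 in PM, leaving out MHC class II. In DIA they were 18140 to 21520, 2508 to 3375, 5270 to 8401, 2942 to 3627, 1828 to 4077 and 2364 to 2571.

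Genes of stress and of RNA and protein handling made up the rest. Of 34 RNA splicing factors 0 were higher and 7 lower, led in signal by Srrm2 at 16430, 2475 and 9067 in PM against 37740 and 15730 in DIA and by Ddx17 at 12500, 5049 and 13870 against 24960 and 20040. The others were Tra2a, Sf3b1, Son, Prpf4b and Clk1. PM array 2 was the lowest in all 7, the count was 2 without it and 3 without DIA array 1, and with the actin covariate 6 were higher and 0 lower. Of 26 heat shock and unfolded protein response genes 0 were higher and 5 lower: Hsph1, Hspa5, Hspa1b, Calr and Hsp90b1. Hspa5, the main chaperone of the endoplasmic reticulum, gave 2284, 785.5 and 2314 against 3607 and 10570. That count was 3 without DIA array 1, 0 without DIA array 2 and 1 without PM array 2, and with the actin covariate 6 were higher and 1 lower.

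Of 24 autophagy and lysosome genes 2 were higher and 5 lower. Gabarapl1, an autophagosome protein induced on fasting, gave 6359, 7949 and 6708 in PM and 2654 and 2083 in DIA (1.42 ± 0.30, adjusted p = 0.271), and Map1lc3b was higher by 1.08 ± 0.42. Laptm5, Hexa, Map1lc3a, Lamp2 and Tfeb were lower. Tfeb, the transcription factor of lysosome genes, gave 288.8, 72.81 and 47.21 against 512.4 and 505.6. The count of lower genes was 8 without DIA array 1, 9 without PM array 1, 1 without DIA array 2 and 1 without PM array 2. With the actin covariate 4 were higher and 0 lower.

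All 21 measured cytosolic ribosomal protein genes lay above the median of all genes, with a list median of 0.42, and 13 had all PM arrays above both DIA arrays. Only Rps2 met the thresholds, at 22280, 31420 and 15330 in PM and 6237 and 12270 in DIA. Without PM array 2 the list median was 0.17. The list level was -0.13, 0.35 and -0.29 in PM and -0.33 and -0.50 in DIA. Under the actin covariate the list median was -0.71. Of 32 oxidative phosphorylation genes 2 were higher, the ATP synthase subunits Atp5b and Atp5c1, and 1 was lower, Ndufa5. Of 23 antioxidant genes 3 were higher, among them Gpx1, a glutathione peroxidase, at 25070, 41360 and 29370 against 12560 and 17850. That count was 1 without DIA array 1, 0 without PM array 2, 5 without DIA array 2, 1 with the actin covariate and 1 after median centring. Cell cycle genes counted 4 of 35 higher, Pcna, Cdk1, Ccna2 and Aurkb, 3 of them dim, with 0 higher without PM array 2 and 3 higher and 5 lower with the actin covariate. After median centring 1 cell cycle gene was higher and 2 were lower. Proteasome and ubiquitin genes counted 2 of 32 higher (Psmd7 and Psmd12), interferon-stimulated genes 1 of 28 (Isg20), the circadian clock 1 higher and 1 lower of 19 (Bhlhe41 and Per3), and translation factors and tRNA synthetases 1 of 23 lower (Mars1).

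Most values above rest on 1 probe set of a gene. Of 89 named gene values at the thresholds whose gene had other probe sets, 35 had another at the thresholds in the same direction and 29 had another of opposite sign. Among the latter, Son had 5 of 6 others with opposite sign, and the only other probe set of Igfbp5 differed by 0.34, that of Ogn by 0.11 and that of Aurkb by -1.01. Both others of Mmp14 were above 0, and both others of Psmd7 were below 0. Acly (2 of 5), Cd8a (2 of 4), Laptm5 (1 of 4), Mycl (1 of 2) and Scd2 (1 of 2) also had others of opposite sign.

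**Figure D4:**
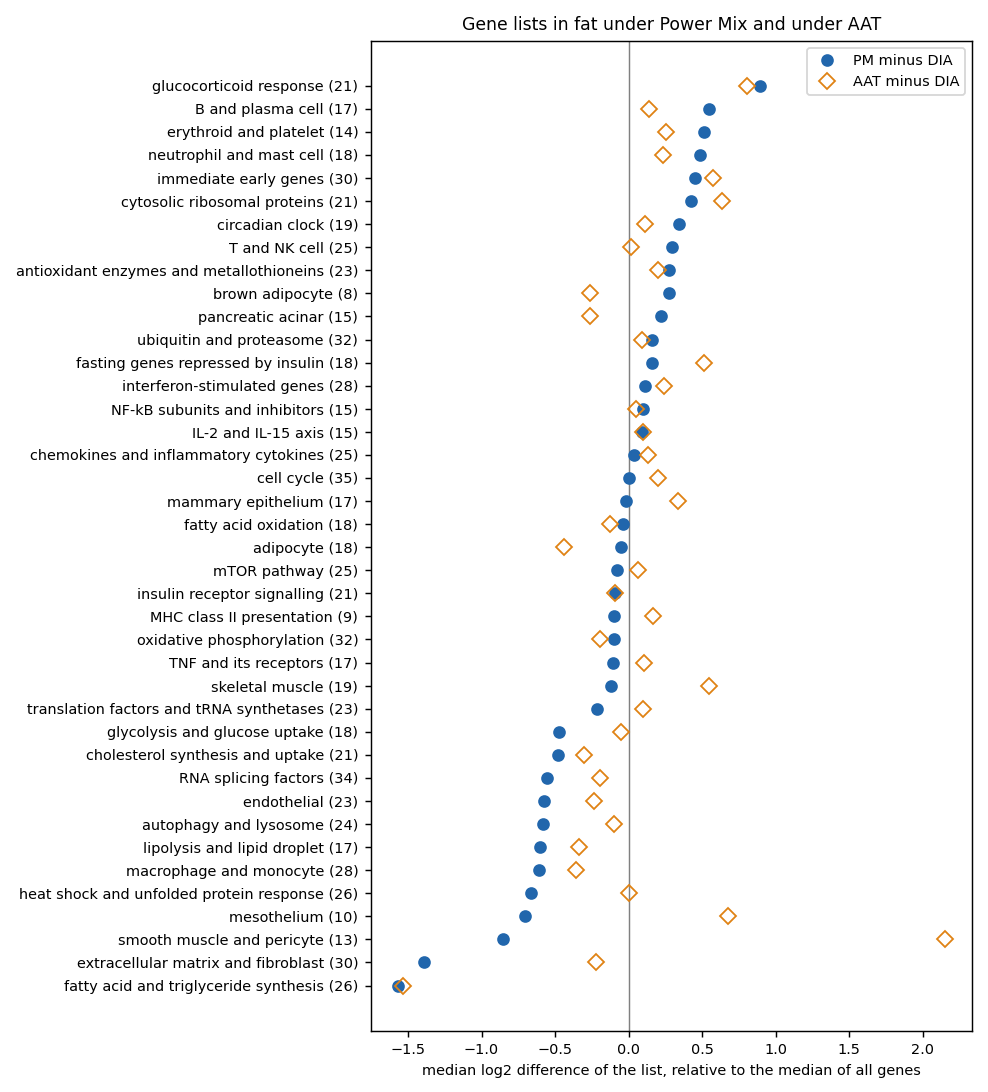
Median log2 difference of each of the 40 gene lists (number of measured genes in parentheses), relative to the median of all genes, for PM minus DIA (filled circles) and AAT minus DIA (open diamonds), which share the DIA arrays. Lipid synthesis is at -1.57 and -1.53, whereas smooth muscle is at -0.86 and 2.15 and matrix at -1.39 and -0.22.

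**Figure D5:**
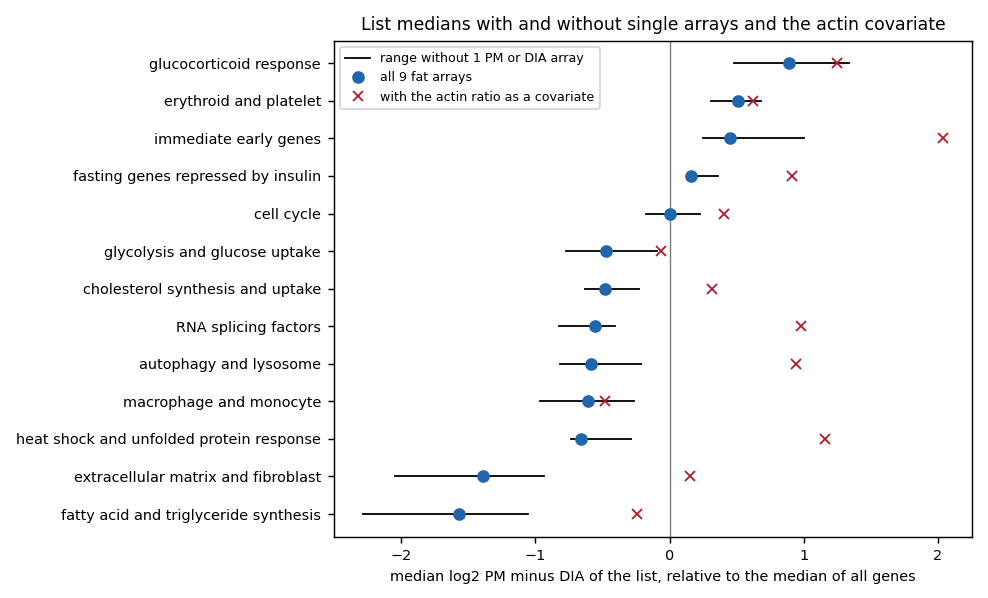
Median log2 PM minus DIA of the 13 lists with at least 4 members at the study thresholds: all 9 arrays (circles), range on leaving out 1 PM or DIA array (lines), and the fit with the actin ratio as a covariate (crosses). The lipid synthesis and matrix medians keep a negative sign without any single array, from -2.29 to -1.05 and from -2.05 to -0.93, and stand at -0.24 and 0.15 with the covariate.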

How the data were processed

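The arrays were Affymetrix Mouse 430 2.0, hybridised with RNA extracted by Trizol. The values deposited by the authors were linear MAS5 signal intensity per probe set, with the 2% trimmed mean of every array at 500. No MAS5 version was stated, and both standard Affymetrix and NuGEN amplification are named in the labels. The methods of the study used RMA values and rank products. RMA values were not used here.

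Signals under 1 were set to 1 and log2 transformed. After 64 control probe sets were left out, the other 45037 entered a fit by limma (version 3.58.1, under R 4.3.3; a mean for each group of the 9 fat arrays, eBayes with trend, two-sided, Benjamini-Hochberg). Of these, 34945 named 1 gene, 932 several and 9160 none. The study thresholds were a fold change over 2, as measured, and an unadjusted p of at most 0.05. Of 936 entries in 40 gene lists, 848 were matched, each by the brightest probe set naming that gene alone. List medians are relative to the median of 18193 genes.

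Named genes were, per direction, the 15 smallest p-values against DIA and the 6 smallest against AAT, among brighter probe sets whose groups did not overlap, by the probe set so found. Of each list described, up to 8 members by smallest p and the 3 brightest were named, together with any mTOR, IL-2/IL-15 or TNF member. Other members named were chosen after their values were seen. The members and lists were chosen with earlier results of these data known. The fit was run on simulated arrays with known changes and independent noise for each probe set. These held no difference in the actin ratio between groups, so they cannot show its part in the results. Alternatives changed the arrays, filter, scaling, floor, prior, replicate block and actin covariate. The number of arrays limits the precision.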

Additional observations from a re-analysis of the deposited data

Results flagged for a closer look

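For 12 of the 65 genes examined, every PM array lay below both DIA arrays and every AAT array above them, so that the treated groups moved in opposite directions from diabetic fat. The reverse order was seen for 0 of them. The 65 were genes at the thresholds or named in PM minus AAT, of which 50 were lower and 15 higher in PM, so the direction of the 12 follows in part from that choice. Of all 18193 genes, 163 (0.896%) had this order and 110 (0.605%) the reverse. The difference itself was tested as PM minus AAT by limma, and none of the 12 passed, with adjusted p-values from 0.11 to 0.672.

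The log2 differences of PM minus AAT for genes of contractile cells were -5.19 for Myh11, -4.90 for Lmod1, -3.02 for Des and -2.85 for Pdlim4, an actin-associated protein. For matrix genes they were -1.42 for Dcn, -2.25 for Mmp14 and -2.34 for Ogn. Ptgis, prostacyclin synthase, stood at -2.90, and Upk3b, a mesothelial marker, at -1.30. The others were Pcdhb9, a protocadherin, at -3.03, Hspa1b, an inducible heat shock protein, at -2.02 and Fosl2, an AP-1 subunit, at -1.53. By their other probe sets, Des stood at 0.51, Ogn at 0.11 and Mmp14 at 0.14 and 0.21 in PM minus DIA. Those of Hspa1b stood at -0.44 and -0.30.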

How the results depend on the processing

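The count of transcripts called higher in PM than DIA by adjusted p, 0 in the fit reported, was 1 with only the compared groups, 4 with a floor at the 20th percentile and 47 with the actin ratio as a covariate, and the count called lower was 1 with that floor. Leaving out single arrays gave 0 to 1 called higher and 0 to 1 called lower (1 each without PM replicate 1), and for PM against AAT 0 to 1 (1 without AAT replicate 1). At the study thresholds 2072 higher became 1213 and 786 with filters at the 40th and 60th percentile, and 1391 lower became 794 with the latter and 2662 by rank product p. Leaving out single arrays gave 1162 to 2707 higher and 882 to 2205 lower. The share of threshold transcripts that were higher was 59.8%, against 46.7% after median centring and 49.7% with the filter at the 60th percentile. The replicate block gave 0 called in either direction, with 1469 higher and 1352 lower at the thresholds. Arrays with the same number share no stated source, and their deviations correlated at -0.0827 and -0.0597.

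Under the actin covariate the PM minus DIA difference changed sign for 89 of 235 gene values of the text, of which 44 had not met the thresholds, among them Sparc, Myh11, Mtor, Dpt and Upk3b. Of the 45 that had, it became positive for Calr 2.84, Srrm2 2.68, Prpf4b 2.67, Hsp90b1 2.38, Hspa5 2.19, Son 2.16, Col6a2 2.12, Slc2a4 2.10, Lamp2 1.94, Clk1 1.92, Slc7a10 1.85, Ddx17 1.79, Adam17 1.77, Timp2 1.63, Col6a3 1.56, Hexa 1.44, Sf3b1 1.41, Fn1 1.39, Per3 1.28, Csf1r 1.25, Col3a1 1.19, Col5a1 1.13, Tra2a 1.12, Igfbp5 0.96, Hspa1b 0.94, Dgat2 0.84, Map1lc3a 0.75, Srebf1 0.73, Efemp1 0.71, Pkm 0.58, Loxl1 0.56, Sc5d 0.48, Ndufa5 0.39, Mlxipl 0.33, Mrc1 0.27, Clec10a 0.21, Frmd4b 0.065, Col1a2 0.035, C1qb 0.025 and Pdgfra 0.017, and negative for Car2 -0.048, Il2rb -0.27, Wfdc2 -0.63, Aurkb -0.85 and Cxcl13 -1.74. No other alternative reversed a named gene that met the thresholds. The cause was not tested. The PM and DIA ranges of the ratio do not overlap, so this fit extrapolates. Genes with dim signals in both groups are limited by background.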

Other observations

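Lep, the gene of leptin, the satiety hormone of adipocytes, gave 18.73 and 9408 on the DIA arrays and 599.8, 28.22 and 619.8 on the PM arrays, so the arrays of each group differed widely. It gave 255.4 and 1299 in NOR and 2252 and 63.11 in AAT.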
